A study of Mus musculus with 10 samples.

Results

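The genes described here encode the constitutive proteasome: the subunits of its 20S core and its 19S cap, the chaperones that assemble the cap, and its activators. They were chosen by gene symbol alone, as every probe set whose single annotated symbol begins with Psma, Psmb, Psmc, Psmd or Psme, without the inducible catalytic subunits Psmb8, Psmb9 and Psmb10. The rule found 50 probe sets for 39 genes, of 12422 probe sets for 8251 genes on the array without its controls. Of the 50, 48 probe sets measure 37 proteasome genes. The remaining genes match only by their letters: Psmc3ip encodes a cofactor of meiotic recombination, and Psme3ip1 encodes a protein that binds Psme3. No expression value entered the rule, but the rule was set with earlier results of these data known. Psme2, the partner of Psme1, is measured by 2 probe sets that carry 2 symbols each, so it is not a member. The 1 of them that was tested is given beside Psme1.

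The study profiled mammary tumours of MMTV-PyMT mice, in which a viral promoter active in mammary epithelium drives the polyomavirus middle T oncogene. All animals were adult females aged 90 days, and every array carries the strain label FVB/Nj and the transgene. Biotin-labelled total RNA was hybridised to 10 Affymetrix mg_u74av2 arrays, of which 9 name a strain in their title: FVBn with 1 array (lettered B), and ILn, LP, MOLF and NZB with an array A and an array B each. The titles call each of these samples a mix of unstated makeup, the groups rest on the titles alone, and the remaining array names no strain and entered no comparison. No label places arrays A and B of a strain in different animals, so p-values measure only the spread between arrays, which may be technical.

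The proteasome is the protease that degrades most proteins tagged with ubiquitin. Its 20S core is a barrel of stacked rings: the outer rings of alpha subunits form the gate, and the inner rings of beta subunits hold the catalytic sites of Psmb5, Psmb6 and Psmb7. The 19S cap binds the ubiquitin chain, removes it and threads the substrate into the core with a ring of ATPases. Interferon replaces the catalytic subunits by Psmb8, Psmb9 and Psmb10, which makes the immunoproteasome, and raises the activators Psme1 and Psme2. In many cells the transcription factor Nfe2l1 raises the subunit genes together when proteasome activity is limiting.

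The promoters of these genes were examined for what they share beyond the name. RefSeq (GRCm38.p6) promoters were matched for 33 of the 39 genes, and 4 motifs were searched on both strands of the 250 bases before each start. CCGGAAG, the core of ETS family sites, was present in 12 of the 33 genes (36.4%), against 7.83% of 27025 genes. These 12 were Psma6, Psmc1, Psmc2, Psmc6, Psmd2, Psmd4, Psmd6, Psmd11, Psmd12, Psme3, Psme4 and Psmc3ip. The 27025 genes are all those with a RefSeq promoter, and a gene counted if any of its promoters matched. This background was not limited to expressed genes or to genes on the array. TGACNNNGC, bound by Nfe2l1 or Nfe2l2 with a small Maf protein, was found in Psmb5, Psmb6, Psmc6, Psmd9 and Psmd12 (15.2%, against 11.5%). CCAAT, the NF-Y motif, was found in 14 genes (42.4%, against 37.5%). The interferon-stimulated response element, searched as GAAA, any 2 bases and GAAA, was found in Psmb3, Psmd4 and Psmd9 (9.09%, against 3.46%). Psmc6 and Psmd12 held both the ETS and the Nfe2l1 motif in the 250 bases, which does not show that any factor binds there. The 100 bases before the start are printed for the catalytic subunits Psmb5 and Psmb6, which carry the Nfe2l1 motif, for Psmc6 and Psmd12, which carry the ETS motif, and for Psma2 and Psmd5, whose strain differences are described below. Capitals mark the motif matches within these 100 bases, and the sequences run 5′ to 3′ on the gene's strand.
Psmb5 (chr14:54617996-54618095, minus strand): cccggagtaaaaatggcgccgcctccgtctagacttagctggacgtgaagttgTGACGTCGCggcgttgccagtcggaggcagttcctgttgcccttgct
Psmb6 (chr11:70525257-70525356, plus strand): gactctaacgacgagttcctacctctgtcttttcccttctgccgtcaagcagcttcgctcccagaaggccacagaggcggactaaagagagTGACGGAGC
Psmc6 (chr14:45329724-45329823, plus strand): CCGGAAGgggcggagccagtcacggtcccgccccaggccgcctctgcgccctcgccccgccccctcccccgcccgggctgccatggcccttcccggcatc
Psmd12 (chr11:107479428-107479527, plus strand): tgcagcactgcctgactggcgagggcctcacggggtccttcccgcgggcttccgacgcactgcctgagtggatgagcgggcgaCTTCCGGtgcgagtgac
Psma2 (chr13:14613142-14613241, plus strand): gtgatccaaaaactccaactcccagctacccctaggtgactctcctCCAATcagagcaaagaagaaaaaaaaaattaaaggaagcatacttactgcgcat
Psmd5 (chr2:34870963-34871062, minus strand): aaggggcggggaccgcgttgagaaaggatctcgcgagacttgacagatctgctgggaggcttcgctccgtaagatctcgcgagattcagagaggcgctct
In these windows the Psma2 match is CCAAT, and the Psmd5 window holds none of the 4 motifs.

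Values are quantile normalized log2 intensities, on which a difference of 1 is a change of 2-fold. Values below the 30th percentile were set to a floor of 4.75. Probe sets above this floor in at least 2 of the 9 strain arrays were tested, 9899 in all. Among the 50 probe sets 46 were tested, for 38 genes, and every one of the 37 proteasome genes kept at least 1. Psmc3ip, a Psmb4 probe set and a Psmc5 probe set lay at the floor on all 9 arrays, and a Psme1 probe set was above it on 1. Intensities of different probe sets depend on the probes, so no order of genes by level is drawn. In RNA of whole tumours, fewer cells of a type and less RNA per cell cannot be told apart.

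On 2 arrays, MOLF A and NZB B, intensities departed from those on the other 7. Their correlation across probe sets was 0.927, but each had correlations of 0.812 to 0.868 with the other 7, which correlated among themselves at 0.931 or more. Mean levels of 10 mammary epithelial markers were within 0.25 of their 9-array mean on every strain array and 0.87 below it on the array without a strain name. Muscle and salivary gland markers varied far more, from -1.92 to 1.48 and from -2.49 to 3.41. Proliferation markers ranged from -0.27 on NZB B to 0.19 on LP A. The log2 ratio of 3′ to 5′ actin probe sets, a measure of RNA integrity, ranged from 0.22 to 0.28 for FVBn and ILn, and from 0.60 to 1.12 for LP, MOLF and NZB. Whether these features play a part in the differences below was not tested.

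No proteasome gene passed the test between strains. ILn, LP, MOLF and NZB were each compared with the other 3 strains' mean, their joint mean was compared with FVBn, and an F test covered the 4 strains with 2 arrays. In limma fits over all 9899 probe sets with Benjamini-Hochberg adjustment at 0.05, 0 of the 46 tested members (45 probe sets of proteasome genes and that of Psme3ip1) were called in any of these 6 comparisons. Among all probe sets 0.404% were called for ILn, 0.313% for LP, 0.414% for MOLF, 0.101% for NZB, 0.313% against FVBn and 0.748% by the F test, so that a count of 0 among 46 is no result about the members. The smallest limma adjusted p of a member was 0.271 for ILn, 0.528 for LP, 0.432 for MOLF, 0.156 for NZB, 0.999 against FVBn and 0.178 for the F test.

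At an unadjusted p under 0.05 the counts of members were 2 higher for ILn (4.35%, against 7.11% of all probe sets), 1 higher for LP (2.17%, against 5.69%), 1 higher and 2 lower for MOLF (6.52%, against 6.42%), 5 lower for NZB (10.9%, against 8.4%), 0 against FVBn (against 3.41%) and 5 by the F test (10.9%, against 7.9%). A strain was separate for a member when its 2 arrays were both above, or both below, the 6 arrays of the remaining 3 strains. Such members numbered 4 for ILn (8.7%, against 10.4%), 3 for LP (6.52%, against 7.01%), 2 for MOLF (4.35%, against 6.22%) and 6 for NZB (13%, against 7.98%). These shares lay near the background, and the unadjusted NZB count depends on single arrays. Without NZB A the NZB count at an unadjusted p under 0.05 was 11 of 46 (23.9%, against 23.1% of all probe sets), and without NZB B it was 2 (4.35%, against 4.51%). With median centring it was 3 (6.52%, against 5.37%), and the F test then gave 1 (2.17%, against 5.54%). Separate in NZB were Psma2, Psma5, Psmc3, Psmd4 and Psmd13 on the low side and Psmd12 on the high side.

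Over the 46 members the log2 differences ran from -0.73 to 0.49 for ILn, from -0.68 to 0.63 for LP, from -0.67 to 0.66 for MOLF, from -0.78 to 0.74 for NZB and from -0.33 to 0.65 for the 4 strains against FVBn. None of these differences exceeded 1, a size reached by 2.95% to 4.19% of all probe sets tested. The median absolute difference was 0.185 for members and 0.25 for all probe sets for the ILn comparison, 0.136 and 0.221 for that of LP, 0.22 and 0.219 for that of MOLF, 0.24 and 0.264 for that of NZB, and 0.187 and 0.224 against FVBn.

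With 1 probe set per gene, the median difference over the 37 proteasome genes was 0.03 for ILn, 0.06 for LP, 0.06 for MOLF, -0.11 for NZB and -0.04 against FVBn, beside -0.02 to 0.02 over all probe sets. For NZB 13 of the 37 differences were positive, beside 4941 of all 9899 probe sets. These medians depend on how the arrays are scaled: with each array centred on its median they were 0.20, 0.21, -0.11, -0.29 and -0.17, so that MOLF changed sign. Probe sets with a mean of 8 or more moved the same way under that scaling, with medians of 0.16, 0.20, -0.13, -0.21 and -0.12 in the same order. The NZB arrays differed: on array B the mean over the 37 genes was 0.16 below the 9-array mean, against 0.03 below on NZB A and between 0 and 0.08 above it on the other 7. Leaving out MOLF A and NZB B gave an NZB median of -0.05.

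**Figure D1:**
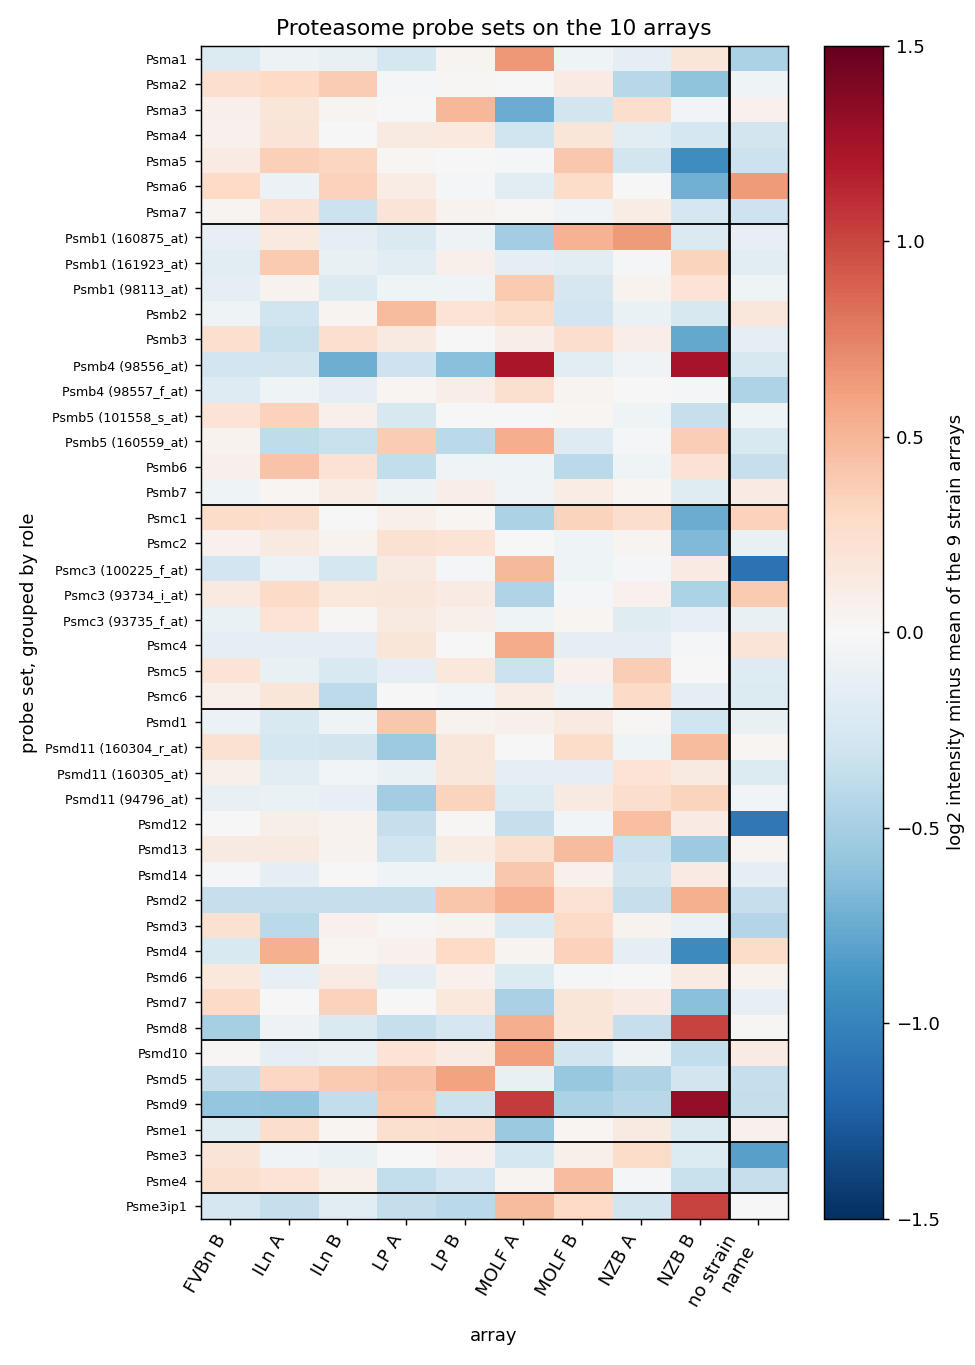
Log2 intensity of the 46 tested members (rows, grouped from top to bottom as core alpha, core beta, cap ATPases, other cap subunits, cap chaperones, Psme1, Psme3 and Psme4, and Psme3ip1) on the 10 arrays (columns), each minus its mean over the 9 strain arrays. Colours run from -1.5 (blue) to 1.5 (red); the strongest colours lie in the MOLF A and NZB B columns and in that of the array without a strain name.

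The alpha subunits, which form the outer rings of the core, had 7 genes with 1 tested probe set each. Their median difference was 0.16 for ILn, 0.10 for LP, 0.11 for MOLF, -0.27 for NZB and -0.09 against FVBn. In NZB 1 of the 7 was positive, beside 4941 of all 9899 probe sets tested. By array their mean was 0.37 below the 9-array mean on NZB B and 0.09 below it on NZB A, and it lay from 0.08 below to 0.15 above on the others. All probe sets with a mean of 8 or more lay 0.08 below on NZB B and 0.02 above on NZB A. No alpha subunit passed the test.

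Psma2, an alpha subunit, had the smallest p-value of all members. Its log2 intensity was 10.02 on FVBn B, 10.07 and 10.16 on the ILn arrays A and B, 9.75 and 9.80 on the LP arrays, 9.77 and 9.89 on the MOLF arrays, and 9.36 and 9.18 on the NZB arrays. Both NZB arrays lay below all other strain arrays and both ILn arrays above them, while LP and MOLF overlapped. NZB was lower than the other 3 strains by a log2 difference of -0.64 (SE 0.115, 95% interval -0.91 to -0.37, 1.56-fold), with a limma adjusted p of 0.156. ILn was higher by 0.49 (SE 0.115, 1.4-fold), with an adjusted p of 0.271 in limma. The direct difference between ILn and NZB was 0.85 (1.8-fold), with a limma adjusted p of 0.0787, and LP and MOLF exceeded NZB by 0.51 and 0.56, with adjusted p of 0.541 and 0.332. Among the 5 arrays that share a title date (FVBn B, ILn B, LP B, MOLF B and NZB A), the NZB difference was -0.59 and the ILn difference 0.47, with no test. On the array without a strain name Psma2 was at 9.72, within the range of the others.

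Psma5, another alpha subunit, was at 9.10 on FVBn B, 9.34 and 9.30 in ILn, 9 and 8.99 in LP, 8.95 and 9.38 in MOLF, and 8.71 and 8.05 in NZB. The NZB arrays were the lowest, but they differed from each other by more than the other strains spanned. The NZB difference was -0.78 (SE 0.206, 1.72-fold), with a limma adjusted p of 0.378. Without NZB B it was -0.46 (limma adjusted p 0.999), and without NZB A it was -1.11 (limma adjusted p 0.0792).

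Psma3, also of the outer ring, differed in MOLF instead. It stood at 9.47 and 9.93 on the MOLF arrays, against 10.29 on FVBn B, 10.39 and 10.26 in ILn, 10.22 and 10.72 in LP, and 10.48 and 10.18 in NZB. The MOLF arrays lay below all others, with a difference of -0.67 (SE 0.189, 1.6-fold) and a limma adjusted p of 0.432. Its probe set is of a type that can bind related transcripts. The same holds for the probe sets of Psmb7 and Psmd12 and for the brightest ones of Psmb4 and Psmc3, all marked f in their names. The brighter Psmb5 probe set (marked s) and that of Psmd9 (marked r) are of other types, whose specificity was not examined. The other alpha subunits Psma1, Psma4, Psma6 and Psma7 had overlapping strains, with mean levels from 7.92 to 9.78. Psma6 was lowest on NZB B at 9.06, against 9.61 to 10.12 on the other strain arrays. Psma1 was highest on MOLF A at 8.58, against 7.66 to 8.10 elsewhere.

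**Figure D2:**
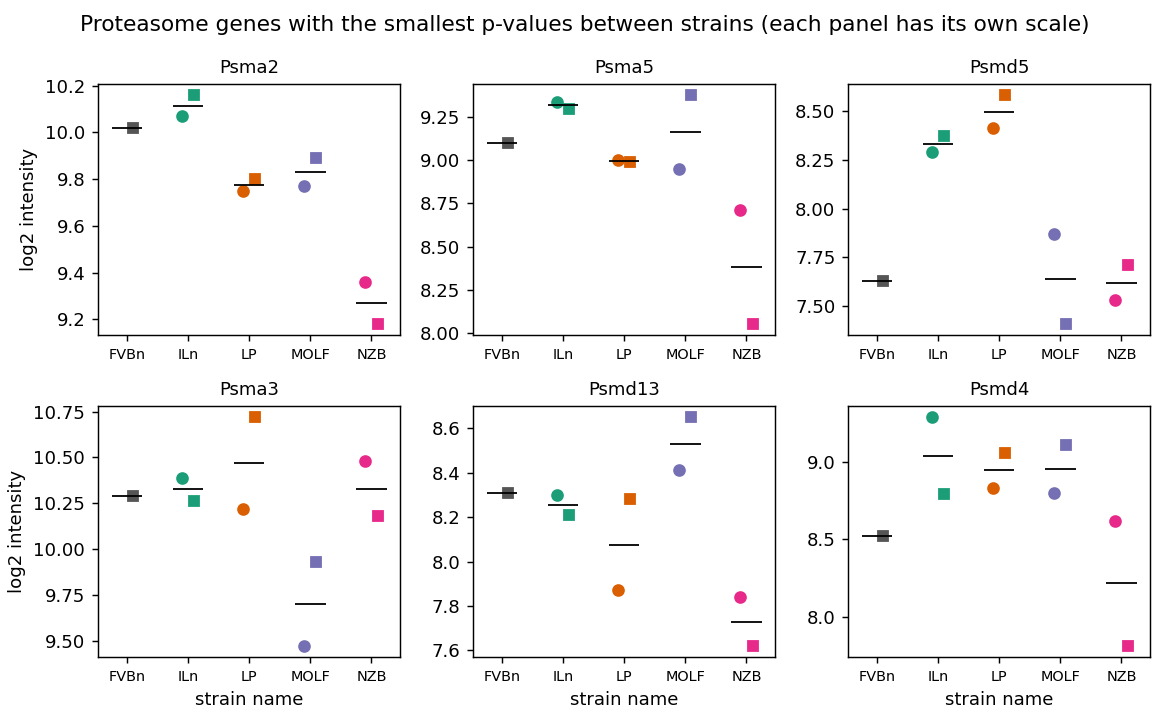
Log2 intensity by strain name of the 6 proteasome genes Psma2, Psma5, Psmd5, Psma3, Psmd13 and Psmd4; circles are arrays A, squares arrays B and lines strain means, and each panel has its own scale. NZB is lowest for Psma2, Psma5, Psmd13 and Psmd4, MOLF is lowest for Psma3, and ILn and LP lie above the rest for Psmd5.

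The beta subunits Psmb1 to Psmb7 form the inner rings and had 11 tested probe sets for 7 genes. With 1 probe set per gene their median difference was -0.01 for ILn, 0 for LP, 0.06 for MOLF, -0.11 for NZB and 0.07 against FVBn, and 0 of the 11 passed the test. Over all 11 probe sets the NZB median was 0.12 with 6 of 11 positive, the opposite sign, and that of LP was -0.09. Psmb5, the chymotrypsin-like subunit, was at 9.45 on FVBn B, 9.57 and 9.32 in ILn, 8.99 and 9.22 in LP, 9.24 and 9.27 in MOLF, and 9.16 and 8.90 in NZB on its brighter probe set. Both ILn arrays exceeded the LP, MOLF and NZB arrays, by a difference of 0.32 (SE 0.145) with a limma adjusted p of 0.739. Without ILn A the difference was 0.19, and among the arrays that share a title date it was 0.10. The dimmer Psmb5 probe set gave -0.46 for the same comparison (adjusted p 0.812 in limma), so the probe sets disagree on direction.

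Psmb6, the caspase-like subunit, was at 9.13 on FVBn B, 9.49 and 9.27 in ILn, 8.68 and 8.99 in LP, 8.99 and 8.65 in MOLF, and 8.99 and 9.27 in NZB. ILn was higher by 0.45 (SE 0.169, 1.36-fold), with overlap with NZB and an adjusted p of 0.618 in limma. Psmb7, the trypsin-like subunit, varied least of all members. Its values ran from 8.79 on NZB B to 9.08 on ILn B and MOLF B, an SD of 0.102 over the 9 arrays, and its strain differences lay between -0.11 and 0.09 against the other 3.

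Psmb4, another beta subunit, was read differently by its probe sets. The bright one lay between 10.13 and 10.55 on the 9 arrays, with an SD of 0.13. A dim one read 6.72 on MOLF A and 6.73 on NZB B but 4.75 to 5.43 on the other 7, where ILn B is at the floor. Its range was therefore at least 3.92-fold, the widest measured among the members. The 2 probe sets took opposite signs in 2 of the 5 strain comparisons. Opposite signs were also found for Psmb1 and Psmb5 in 2 comparisons each, for Psmd11 in 3 and for Psmc3 in 4. Psmb2 was at 9.14 on FVBn B, 8.89 and 9.24 in ILn, 9.67 and 9.39 in LP, 9.48 and 8.91 in MOLF, and 9.09 and 8.96 in NZB. Its LP difference was 0.44 with a limma adjusted p of 0.899, and 0.29 without LP A.

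The inducible subunits Psmb8, Psmb9 and Psmb10 take the places of Psmb5, Psmb6 and Psmb7 in the immunoproteasome, and were set apart by the rule. Psmb8 was at 8.72 on FVBn B, 9.57 and 9.01 in ILn, 9.90 and 9.75 in LP, 8.93 and 8.60 in MOLF, and 9.76 and 9.69 in NZB. MOLF was lower than the other 3 by -0.85 (SE 0.179, 1.8-fold; limma adjusted p 0.203) and LP was higher by 0.56 (adjusted p 0.599 in limma). Psmb9 was at the floor on MOLF A and at 6.97 on MOLF B, against 7.27 to 7.90 on the other strain arrays, which gave a MOLF difference of -1.73 that a floor value enters (limma adjusted p 0.476). Psmb10 was at 7.51 and 8.23 in MOLF and 8.92 and 8.72 in LP, with differences of -0.67 and 0.60 (adjusted p 0.618 and 0.827 in limma). None of the 3 passed the test.

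The catalytic pairs differed in range. Over the 9 arrays the highest value exceeded the lowest 2.46-fold for Psmb8, at least 8.86-fold for Psmb9 and 2.66-fold for Psmb10. For the constitutive partners it did so 1.6-fold for Psmb5 (1.95-fold on its dimmer probe set), 1.79-fold for Psmb6 and 1.22-fold for Psmb7. The median SD of the 3 inducible genes was 0.505, and 0.347 without MOLF A and NZB B. MOLF A held the lowest value of Psmb9 and of Psmb10. Taken as the log2 ratio of inducible to constitutive partner relative to its 9-array mean, Psmb8 over Psmb5 was 0.82 and 0.43 in LP, 0.50 and 0.71 in NZB, -0.40 and -0.76 in MOLF, -0.09 and -0.39 in ILn and -0.82 on FVBn B. LP and NZB were above the mean on all 4 of their arrays, and the other 5 arrays were below it. The Psmb5 values in this ratio are from its brighter probe set. Its dimmer one read 6.70 and 6.75 in ILn but 7.45 on NZB B, and with it this split does not hold. The other pairs did not follow the order given for Psmb8 over Psmb5. Psmb10 over Psmb7 was 0.66 and 0.28 in LP, 0.23 and 0.13 in ILn, 0.09 and -0.23 in NZB, -0.78 and -0.22 in MOLF and -0.16 on FVBn B. Psmb9 over Psmb6 was 1 and 0.79 in LP, 0.66 and 0 in NZB, -0.23 and -0.08 in ILn, 0.02 on FVBn B, and 0.20 on MOLF B, while MOLF A was at -2.35 with Psmb9 at the floor. In the same comparisons 3 of 17 tested interferon-inducible antigen processing genes were higher in LP and 5 lower in MOLF (limma, adjusted p under 0.05), with medians of 0.92 and -0.90, beside 0.313% and 0.414% of all probe sets called in either direction. That list includes Psmb8, Psmb9 and Psmb10. Skeletal muscle markers moved the same way: 6 of 12 were higher in LP (median 1.63) and 6 lower in MOLF (median -2.11), and their part in the result was not tested. The difference in behaviour between the constitutive and inducible subunits was itself not tested.

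**Figure D3:**
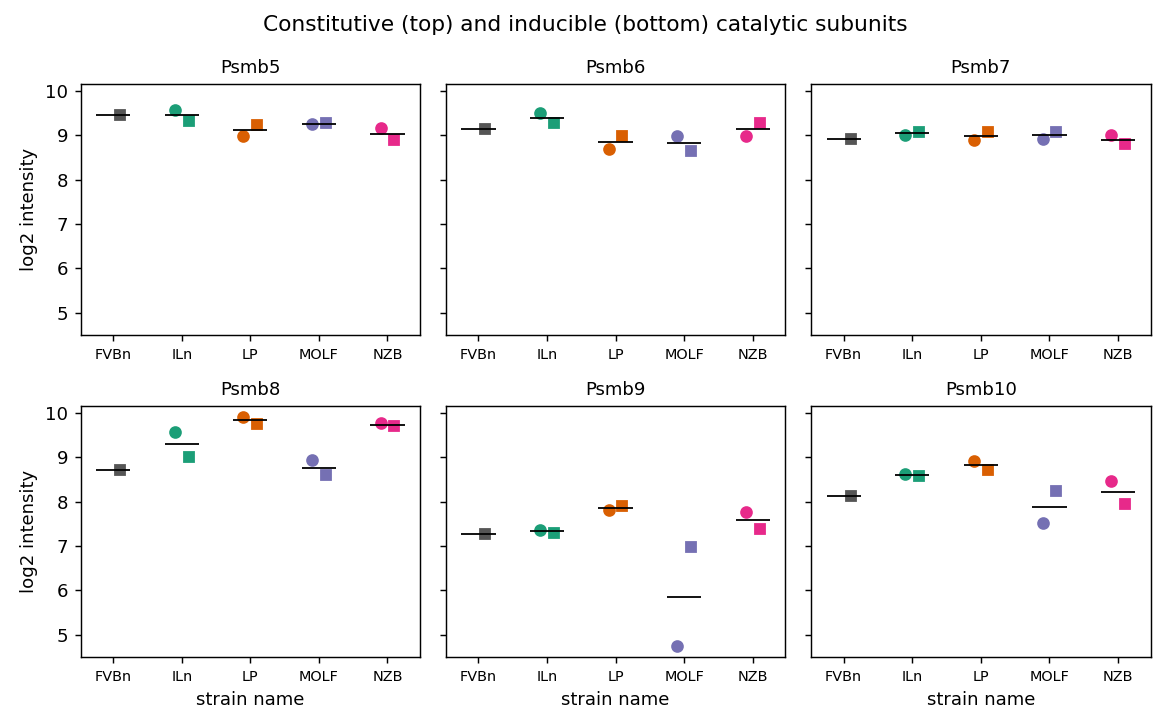
Log2 intensity by strain name of the constitutive catalytic subunits Psmb5, Psmb6 and Psmb7 (top) and of Psmb8, Psmb9 and Psmb10 (bottom), which replace them; circles are arrays A, squares arrays B and lines strain means. Psmb7 stays between 8.79 and 9.08, while Psmb8 runs from 8.60 to 9.90 and Psmb9 lies at the floor of 4.75 on MOLF A.

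The cap ATPases Psmc1 to Psmc6 unfold the substrate and drive it into the core. With 8 tested probe sets for 6 genes, their median difference was 0 for ILn, 0.10 for LP, -0.04 for MOLF, -0.17 for NZB and -0.08 against FVBn, and 0 passed the test. On NZB B their mean was 0.28 below the 9-array mean, while NZB A was 0.11 above it. Psmc1 was at 6.94 on NZB B and 7.21 on MOLF A, against 7.71 to 8.02 on the other strain arrays. Psmc2 was at 8.07 on NZB B and between 8.65 and 8.96 on the rest. Both LP arrays, at 8.96 and 8.94, exceeded the arrays of the other 3 strains, by a difference of 0.31 (SE 0.194) with a limma adjusted p of 0.903. Psmc4 was above the floor on 4 of the 9 arrays and at most 5.46. Psmc6 ranged from 9.64 to 10.32 with overlapping strains. Psmc3 had 3 probe sets, of which the brightest was lowest in NZB at 8.51 and 8.57, with a difference of -0.22 and an adjusted p of 0.669 in limma.

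The cap subunits without ATPase activity form the lid and the scaffold and ubiquitin receptors of the base. Their 11 genes had 13 tested probe sets, with median differences of -0.10 for ILn, -0.03 for LP, 0.12 for MOLF, 0.01 for NZB and 0.03 against FVBn, and 0 passed. Psmd4, a ubiquitin receptor, was at 8.52 on FVBn B, 9.29 and 8.79 in ILn, 8.83 and 9.06 in LP, 8.80 and 9.11 in MOLF, and 8.62 and 7.81 in NZB. NZB was lower than the other 3 by -0.76 (SE 0.251, 1.69-fold; limma adjusted p 0.513), and the difference was -0.36 among the arrays that share a title date, which leave out NZB B. Without NZB A it was -1.16 (limma adjusted p 0.0948). FVBn B lay below NZB A.

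Psmd13, a lid subunit, was at 8.31 on FVBn B, 8.30 and 8.21 in ILn, 7.87 and 8.28 in LP, 8.41 and 8.65 in MOLF, and 7.84 and 7.62 in NZB. NZB lay below and MOLF above all other arrays, with differences of -0.55 and 0.51 (SE 0.184 each) and limma adjusted p of 0.513 and 0.643. Psmd12, also of the lid, went the other way in NZB. It stood at 8.69 and 8.36 on the NZB arrays and at 7.89 to 8.33 on the others, a difference of 0.38 (SE 0.189) with an adjusted p of 0.624 in limma. Psmd8, another lid subunit, was at 9.30 on NZB B and 8.82 on MOLF A, against 7.79 to 8.46 elsewhere. Psmd2, a scaffold of the base, was above the floor on 4 of the 9 arrays and at most 5.62. Psmd14, the deubiquitinase of the lid, ranged from 8.07 to 8.75.

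The chaperones Psmd5, Psmd9 and Psmd10 help to assemble the base and leave before the proteasome is complete. Psmd5 was at 7.63 on FVBn B, 8.29 and 8.37 in ILn, 8.41 and 8.58 in LP, 7.87 and 7.41 in MOLF, and 7.53 and 7.71 in NZB. All 4 ILn and LP arrays exceeded the other 5. Its LP difference was 0.63 (SE 0.192, 95% interval 0.18 to 1.08, 1.55-fold), with a limma adjusted p of 0.528. The NZB difference was -0.53 and the MOLF difference -0.51, with adjusted p of 0.534 and 0.677 in limma. Without MOLF B that of MOLF was -0.27, and without MOLF A it was -0.75. Among the arrays that share a title date the LP difference was 0.81 and the MOLF difference -0.75. Psmd9 was at 9.35 on NZB B, 9.08 on MOLF A and 8.42 on LP A, against 7.44 to 7.71 on the other 6, and had an SD of 0.73 over the 9 arrays. Psmd10 ranged from 5.67 on NZB B to 6.66 on MOLF A.

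Of the activators, Psme1 forms with Psme2 the interferon-inducible ring that opens the core without ATP. It was at 9.04 on FVBn B, 9.48 and 9.24 in ILn, 9.46 and 9.47 in LP, 8.66 and 9.25 in MOLF, and 9.35 and 9 in NZB. LP was higher by 0.30 (SE 0.192; limma adjusted p 0.903) and MOLF lower by -0.38 (SE 0.192; limma adjusted p 0.847), and LP exceeded MOLF by 0.51 with an adjusted p of 0.829 in limma. The arrays of these strains overlapped with the others, and MOLF B lay within the range of NZB. The tested Psme2 probe set, which carries a second symbol, differed by -0.34 for ILn, 0.27 for LP, 0.19 for MOLF and -0.11 for NZB. Its limma adjusted p was 0.806, 0.903, 0.918 and 0.859 in that order. These signs were those of Psme1 for LP and NZB but opposite to Psme1 for ILn and MOLF.

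Psme3, the nuclear relative of Psme1, was at 8.90 on FVBn B, 8.65 and 8.61 in ILn, 8.72 and 8.78 in LP, 8.45 and 8.79 in MOLF, and 8.97 and 8.5 in NZB, with differences between -0.09 and 0.09 for each strain against the other 3. Psme4, a large activator with roles in the nucleus, was at 8.58 on FVBn B, 8.54 and 8.42 in ILn, 7.97 and 8.05 in LP, 8.38 and 8.80 in MOLF, and 8.31 and 8.01 in NZB. Its LP difference was -0.40 (SE 0.179; limma adjusted p 0.901) and its MOLF difference 0.37 (limma adjusted p 0.836), which was 0.16 without MOLF B and 0.59 without MOLF A. Psme3ip1, which shares only the prefix, was highest on NZB B at 8.81 and on MOLF A at 8.28. Against the single FVBn array the smallest p-values among members belonged to Psma2 (-0.28), Psmd5 (0.39), Psmb4 (0.21) and Psmd8 (0.56), each with a limma adjusted p of 0.999.

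Spread over the 9 arrays was compared without regard to strain. The median SD of log2 intensity was 0.275 for the 46 members, from 0.102 to 0.735, and 0.363 for all probe sets tested. Bright probe sets vary less, and among those with a mean of 8 or more the medians were equal: 0.264 for 33 members and 0.264 for all 2649. The 13 dimmer members had a median of 0.324. A range over 1 log2 unit was reached by 30.4% of members and 56.6% of all probe sets, and among the bright ones by 27.3% and 33.4%. Without MOLF A and NZB B the median SD of bright members was 0.211, and that of all bright probe sets 0.208.

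**Figure D4:**
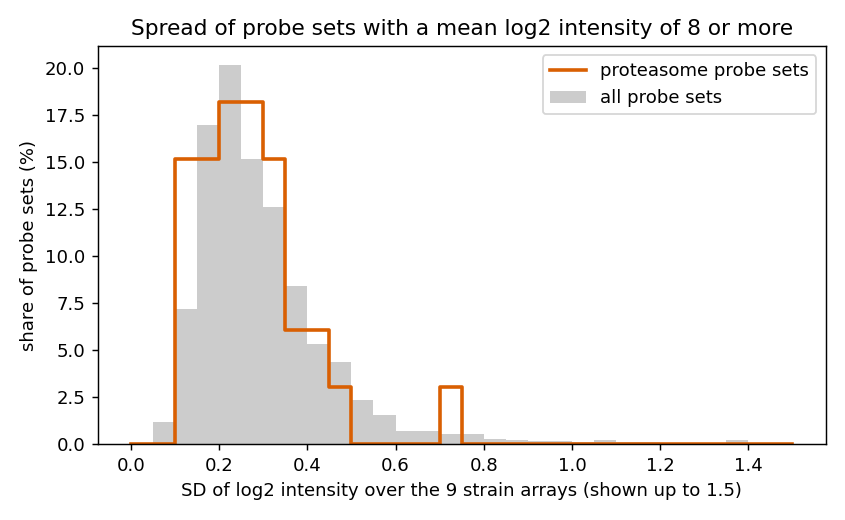
Distribution of the SD of log2 intensity over the 9 strain arrays for probe sets with a mean of 8 or more, as the share (%) of 33 proteasome probe sets (line) and of all 2649 probe sets (grey bars), in steps of 0.05 and shown up to an SD of 1.5. The distributions overlap, and both have a median of 0.264.

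The arrays of a strain were compared as A minus B. Over the members this difference had an SD of 0.259 for ILn and 0.313 for LP, and of 0.544 for MOLF and 0.613 for NZB. Over all probe sets the SDs were 0.379, 0.467, 0.863 and 0.913 in that order, so the strains with an array that departed from the rest also spread most in the members. No member differed by over 1 between the ILn or LP arrays, 3 did between the MOLF arrays (6.52%, against 20% of all probe sets) and 5 between the NZB arrays (10.9%, against 21.8%).

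On MOLF A 11 members lay over 0.5 from their 9-array mean (23.9%, against 36.6% of all probe sets), and on NZB B 14 did (30.4%, against 41.2%). Each of the other 7 arrays had 1 to 3 (2.17% to 6.52%, against 12% to 18.7%). The median level was 8.74 for members and 6.89 for all probe sets, and the shares in this paragraph were not matched for brightness. NZB B was the lowest array for 14 members and the highest for 7. No share over all probe sets was computed for these counts, so they are no result about the members. Members over 0.5 above their mean on both arrays were Psmd2, Psmd8, Psmd9 and the dim Psmb4 probe set (8.7%, against 11.5%), and 0 were below by that much on both (against 9.33%).

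**Figure D5:**
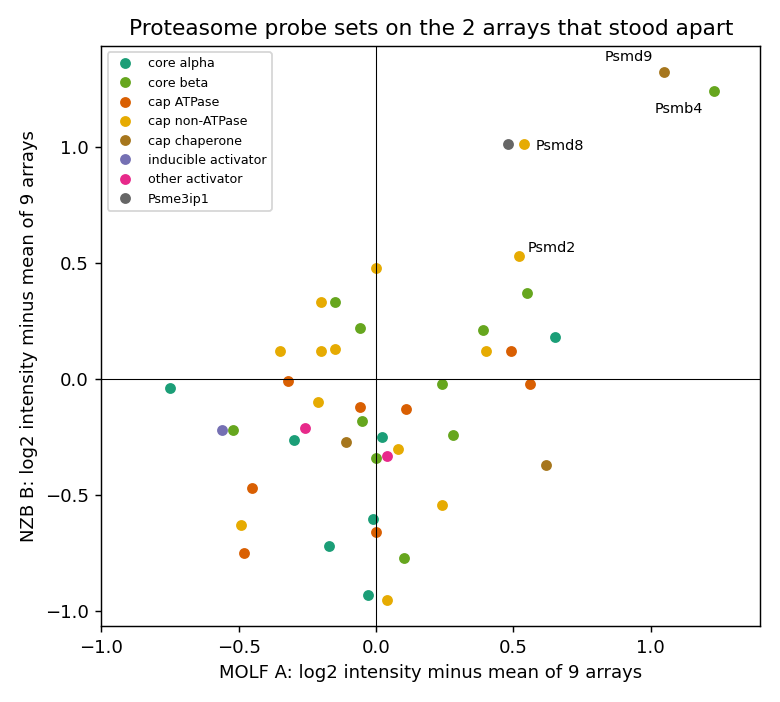
Log2 intensity minus the 9-array mean on MOLF A (horizontal) and NZB B (vertical) for the 46 tested members, coloured by role, with names where both values exceed 0.5. Psmd9, Psmb4, Psmd8 and Psmd2 lie high on both arrays, and none lies below -0.5 on both.

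The array without a strain name lay above all 9 strain arrays for Psma6, Psmb7, Psmc1 and a Psmc3 probe set (8.7% of members, against 16.4% of all probe sets). It lay below all of them for 7 members (15.2%, against 17.3%): Psma1, Psmb4, Psmd3, Psmd12, Psme3, and a probe set each of Psmc3 and Psmd11. Psmd12 was at 7.17 there, against 7.89 to 8.69 on the strain arrays, and Psme3 was at 7.89, against 8.45 to 8.97. Its mean over the 37 genes was 0.14 below the 9-array mean. On this array adipocyte markers averaged 3.76 and muscle markers 3.10 above their 9-array means.

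Assembly factors and regulators of the proteasome were examined from a list of 17 genes. Of the 10 tested 0 passed in any strain comparison and 0 reached an unadjusted p under 0.05, and the median differences were 0.03 for ILn, 0.12 for LP, -0.01 for MOLF, -0.10 for NZB and -0.13 against FVBn. Nfe2l1, the factor that raises subunit genes, lay between 9.70 and 10.08 on the 9 arrays, with differences of 0.02, 0.13, -0.12 and -0.03 for the 4 strains against the others. Its relative Nfe2l2, a regulator of oxidative stress genes, differed by -0.44 in NZB, with a limma adjusted p of 0.624. Among 19 tested genes of the ubiquitin system 0 passed as well, with medians from -0.11 to 0.07. The smallest adjusted p there was that of Ubqln1, a shuttle factor that brings ubiquitinated proteins to the proteasome, which differed by 0.55 in ILn with a limma adjusted p of 0.254. On NZB B the mean of both lists was lower than on any other strain array, at -0.29 and -0.27.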

How the data were processed

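The authors deposited 1 linear intensity value per probe set and array, and no label or header records how probes were summarised (not given in the sources used here). On 9 arrays the 2% trimmed mean of these deposited intensity values was 150, and on ILn A it was 500. After leaving out 66 control probe sets, log2 values of the 9 strain arrays were quantile normalized with limma 3.58.1 in R 4.3.3, and values below the 30th percentile (27.0, log2 4.75) were raised to it. The array that names no strain was then given this distribution. Differences were fitted with limma (lmFit, eBayes with an intensity trend) over the 9899 probe sets above the floor in at least 2 arrays, with 1 mean per strain name and 4 residual degrees of freedom. FVBn, with 1 array, took the spread of the other strains. Precision is limited by the number of arrays.

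Symbols came from the platform annotation (10855 probe sets with 1 symbol, 396 with several). Class values use, per gene, its tested probe set of highest mean. Chosen to be named with values were the 4 members with the smallest p in each comparison, and the catalytic subunits and activators. So were genes whose probe sets disagree, the members with the widest ranges and the extremes of each class by mean. Of these, Psmb1, Psmd3 and Psmd11 are given without levels. Other genes were named after their values were seen. The members and gene lists were chosen with earlier results of these data known. Alternatives changed the scaling, the floor, the filter, the prior, the arrays used and the blocks (array letter, title date).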

Additional observations from a re-analysis of the deposited data

How the results depend on the processing

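The count of 0 proteasome probe sets past the adjusted test held in each of the 6 comparisons under all alternatives that could be fitted. The 20 differences of single members followed here kept their direction and stayed short of the threshold throughout. For Psma2 in NZB the difference ran from -0.85 with median centring to -0.55 without NZB B, and its limma adjusted p from 0.0832 without NZB A to 0.807 with median centring. Centring each array on its median moved the median over the 37 genes to 0.20 for ILn, 0.21 for LP, -0.11 for MOLF, -0.29 for NZB and -0.17 against FVBn, where all probe sets moved to 0.04, 0.07, -0.05, -0.07 and -0.03. Leaving out 1 array at a time gave medians of 0 to 0.12 for ILn and -0.22 to -0.05 for NZB, both extremes at 0.12 and -0.22 being those without NZB A. Counts of members at an unadjusted p under 0.05 moved more. Over all alternatives 37 of these counts changed by more than 1.5 times or rose from 0, and 64 did not. With the array letter as a replicate block 0 members passed in any comparison. In NZB 5 members had an unadjusted p under 0.05 (10.9%, against 7.02% of all probe sets), and the smallest limma adjusted p there was 0.315. Whether the letters pair the arrays is not known. The correlation of the deviations of A between strains ran from -0.71 (MOLF and NZB) to 0.13. It cannot decide this, because MOLF A and NZB B departed from the other arrays and carry different letters. With the title date as a block the Psma2 difference in NZB was -0.62 with a limma adjusted p of 0.692. With 2 arrays per strain, and a spread in MOLF and NZB above that in ILn and LP, differences below 1 log2 unit are hard to detect here, and a count of 0 does not show equal levels.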
